A study of Homo sapiens with 21 samples.

Results

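RNA bound by HNRNPK in the nucleus was compared between MDA-MB-231 cells that lack KRT19 and the parental cells. MDA-MB-231 is a long-established line from a triple-negative breast cancer, and the KRT19 KO cells were made from it with CRISPR/Cas9. Whether the KO line is 1 clone is not given in the sources used here. Both cell lines had been fed 4-thiouridine (4SU), exposed to ultraviolet light and fractionated, and RNA crosslinked to HNRNPK was recovered with an antibody labelled anti-HNRNPK/J. In this method, PAR-CLIP, a crosslinked 4SU gives a T-to-C change in the reads, and overlapping reads with such changes are grouped into clusters. The question was which RNAs carried more or fewer of the nuclear HNRNPK reads when KRT19, the gene for the intermediate filament protein keratin 19, was absent. Of the 21 samples of the series, 2 were compared, 1 nuclear library from parental and 1 from KRT19 KO cells. The differences below therefore lack a replicate check, and the cell lines could not be compared by a test.

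For each gene the reads of its clusters were summed, and the sum was taken as a share of all reads in clusters that carry a gene name, given below as RPM, the reads per 1000000 gene-assigned reads. Genes with 200 or more reads in both nuclear libraries together were kept. These were 5339 of the 15874 genes with a cluster in either nuclear library, and they held 89.9% of the gene-assigned reads of parental nuclei and 89.6% of those of KRT19 KO nuclei. At the edge of this rule, 11 genes had exactly 200 reads, among them AEN with 88 parental and 112 KRT19 KO reads, and 13 genes had 199, among them ALKBH8 with 133 and 66. The ratio of a gene is its share in KRT19 KO nuclei over its share in parental nuclei, with an exact binomial 95% interval. Such intervals take every read as independent and leave out spread between experiments. Unique reads were 19.987% of the cluster reads in parental nuclei and 18.996% in KRT19 KO nuclei. Whether the other reads are copies of 1 molecule was not tested. Copies of 1 molecule are not independent reads, and where they were counted the intervals are too narrow even for counting error. A share of bound reads rests on the amount of an RNA as well as on its binding, the RNA level was not analysed here, and fewer cells with an RNA and less of it per cell cannot be told apart.

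HNRNPK belongs to the heterogeneous nuclear ribonucleoproteins, which coat newly made transcripts. Its KH domains contact short single-stranded runs of C, and it takes part in splicing, RNA stability, translation and transcription. It moves between nucleus and cytoplasm, and in the nucleus much of the RNA within its reach is intron sequence that has not yet been spliced out.

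The nuclear clusters gave 3537577 reads in 200387 clusters from parental cells and 3252800 reads in 199119 clusters from KRT19 KO cells. The T-to-C change was carried by 72.9% and 76.7% of the reads, and the median cluster was 29 and 25 nt long. The libraries also differed in the share of reads in clusters without a gene name, 16.7% in parental and 21.2% in KRT19 KO nuclei, and in reads on mitochondrial DNA, 0.918% and 3.72% of all reads. The part of these differences in the gene ratios was not tested. Every cluster on a sequence of the reference, 200263 parental and 199003 KRT19 KO clusters, was equal to GRCh37 (hg19) at its position. KRT19 itself had no cluster in either nuclear library, so bound reads do not check the genotype. All 8 of the marker genes expected for MDA-MB-231 were kept (VIM, CD44, EGFR, AXL, MSN, CAV1, ETS1 and ZEB1) and none of the 8 luminal or epithelial markers not expected for it, of which PGR and FOXA1 had no cluster.

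The sequences below are sites at which both libraries had a cluster, and they show what the compared reads look like at sites that were alike in both cell lines, higher in KRT19 KO nuclei and lower there. They are RNA written with T, 5′ to 3′, equal to GRCh37, at most 30 nt long, and capitals mark runs of 3 or more C. Most of those shown hold such a run. Of the 40 sites they were taken from, which are the shared sites with the most reads, the highest or the lowest ratio and the top shared sites of named genes, 31 hold one and 9 do not. A run of CCC was present in 45.4% of all parental and 45.1% of all KRT19 KO nuclear clusters.
RNU4-2: cttttCCCaataCCCCgccatgacgacttg
HMGA2: aattaatttttactCCCCtattctcatatg
EFNA5: cttatCCCattCCCCtaacacacaCCCCaa
TNS4: tatCCCtttctttatcctctccaacaCCCC
EDIL3: ctCCCtCCCattCCCCCCacctt
UCA1: tttttccacaCCCaaaacaaaaaatc
RARA: ctactCCCattCCCCatccaacaaag
KLC4: cttttctctttatcctttcttCCCCtCCCa
RASAL2: catttccattattCCCacaaattcc
EIF4G2: catCCCCtcaaaccatatata
PARP4: aaaaattaaattaacaaaaataag
ZNF367: tttcaaaacatccatcacacattta

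RNU4-2 encodes U4, an RNA of the spliceosome, and its stretch lies at chr12:120729609-120729638 on the minus strand. This site held 9751 parental and 9093 KRT19 KO reads, a ratio of 1.07 (1.04 to 1.10). RNU4-1 on the same chromosome is a near-identical copy, so the split of reads between the copies is uncertain. The EFNA5 stretch, chr5:106863313-106863342 on the minus strand, lies in an intron of the gene for the ligand ephrin A5 and held 814 parental and 147 KRT19 KO reads, 4.82-fold lower (4.04 to 5.78). The TNS4 stretch, chr17:38648215-38648244 on the minus strand and also intronic, held 372 and 20 reads, 16.2-fold lower (10.3 to 26.8). An intron site of EDIL3, which encodes a secreted matrix protein, was at chr5:83638232-83638254 on the minus strand and held 230 and 9 reads, 22.2-fold lower (11.5 to 49.3). The exonic site of the long noncoding RNA UCA1, chr19:15945745-15945770 on the plus strand, held 214 and 7 reads, 26.6-fold lower (12.7 to 67.0). The PARP4 intron site, chr13:25013664-25013687 on the minus strand, holds no run of C and had 200 and 9 reads, 19.3-fold lower (9.98 to 42.9). The EDIL3, UCA1 and PARP4 sites were 3 of the 5 with the lowest ratio among shared sites of 200 or more reads, while the U4 site, which also holds runs of C, had nearly the same share in both nuclei.

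Other sites had a higher share in KRT19 KO nuclei. An intron site of RARA, which encodes a retinoic acid receptor, lies at chr17:38490988-38491013 on the plus strand and held 23 parental and 195 KRT19 KO reads, 9.74-fold higher (6.31 to 15.7). The KLC4 site, chr6:43012797-43012826 on the plus strand in a transcript annotated for nonsense-mediated decay, held 65 and 161 reads, 2.85-fold higher (2.12 to 3.86). The RASAL2 intron site, chr1:178097782-178097806 on the plus strand, held 98 and 237 reads, 2.78-fold higher (2.19 to 3.55). The ZNF367 intron site, chr9:99153562-99153586 on the minus strand and without a run of C, held 44 and 80 reads, 2.09-fold higher (1.43 to 3.09). The coding site of EIF4G2, chr11:10821169-10821189 on the minus strand, held 8 and 70 reads. The HMGA2 intron site, chr12:66268930-66268959 on the plus strand, held 752 and 348 reads, 1.88-fold lower (1.65 to 2.14).

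Most genes had a like share in both nuclei, and a minority lay far from equality on each side. Of the kept genes 5322 had clusters in both nuclear libraries. The share was at least 2-fold higher in KRT19 KO nuclei for 529 of them (9.94%) and at least 2-fold lower for 592 (11.1%), so 21.1% were past 2-fold in either direction. At 4-fold the counts were 100 and 111. The middle 50% of log2 ratios ran from -0.52 to 0.46 around a median of -0.02, and the 5th and 95th percentiles were -1.46 and 1.37. The counting interval left out a ratio of 1 for 3952 genes (74.3%), far more than the number past 2-fold. This interval takes reads as independent, and spread between experiments is not part of it. The number of genes it sets apart from 1 is therefore too high where reads are copies of 1 molecule. The rank correlation of the shares over the kept genes was 0.736, a description of 2 libraries whose genes are not independent. Taken over all cluster reads in place of gene-assigned reads, the counts were 450 higher and 673 lower.

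**Figure D1:**
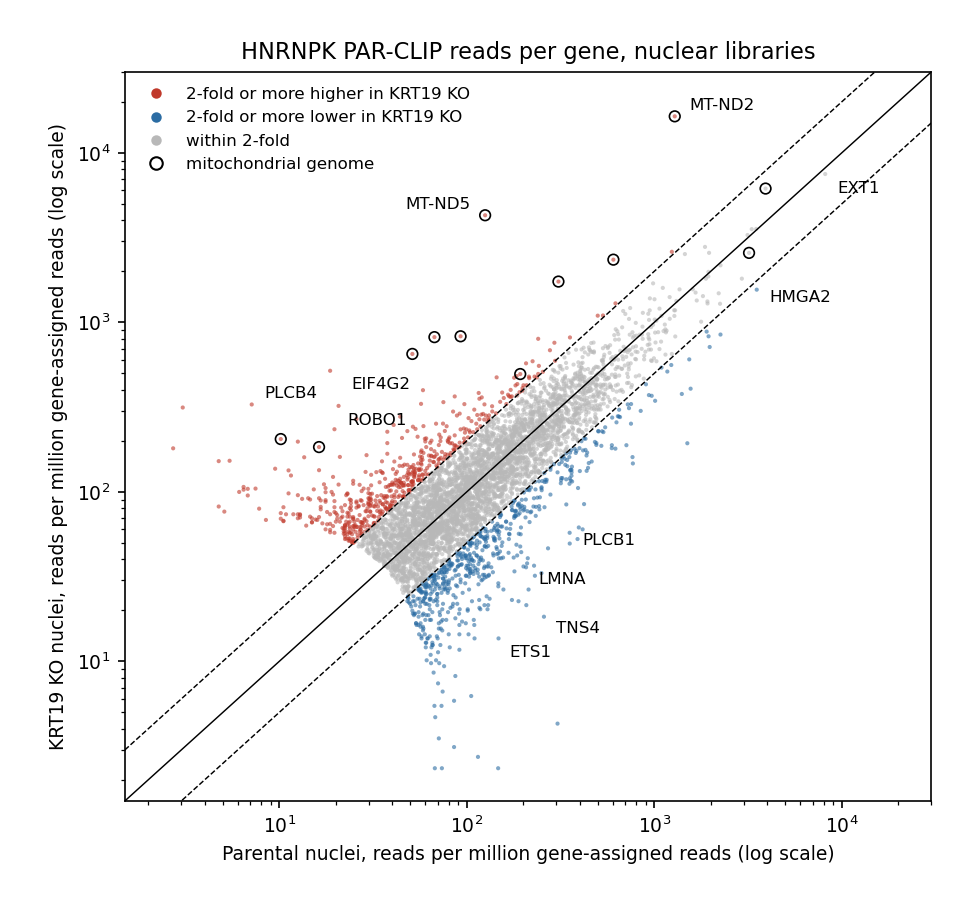
Each point is 1 of the 5322 genes with clusters in both nuclear libraries, placed by its RPM in parental nuclei (x axis, log scale) and in KRT19 KO nuclei (y axis, log scale), with lines at equal shares and at 2-fold. Most points lie between the 2-fold lines, 529 lie above them and 592 below, and named genes such as PLCB4 and TNS4 stand far from equality.

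The genes with the most nuclear reads differed little between the cell lines, apart from a few. EXT1, which encodes a glycosyltransferase that builds heparan sulfate, lies on chromosome 8 from 118806729 to 119124065 and held the most reads outside the mitochondrial genome. It had 24044 reads in 449 clusters in parental nuclei and 19228 reads in 440 clusters in KRT19 KO nuclei, or 8163 and 7502 RPM, a ratio of 0.919 (0.902 to 0.937). TRIO, a guanine nucleotide exchange factor, had 9262 and 8396 reads, a ratio of 1.04 (1.01 to 1.07). The long noncoding RNA RP11-115J23.1 had 10300 and 9118 reads, a ratio of 1.02 (0.989 to 1.05). These 3 long transcripts thus carried nearly the same share in both nuclei.

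HMGA2, an architectural chromatin protein of fetal tissues and many tumors, was the exception with the largest drop among the most bound genes. It lies on chromosome 12 from 66218240 to 66360071 and had 10367 reads in 230 clusters in parental nuclei and 3996 reads in 140 clusters in KRT19 KO nuclei, a share 2.26-fold lower (2.18 to 2.34). In the cytoplasm the share of HMGA2 was 2.73-fold lower. EFNA5 had 8636 and 4642 reads, 1.62-fold lower (1.56 to 1.68), and RASAL2, a GTPase-activating protein for RAS, had 5493 and 7144 reads, 1.49-fold higher (1.44 to 1.55).

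The highest ratios were taken among genes with 500 or more reads in both libraries together and 3 or more clusters in each, with the mitochondrial genome, whose MT-ND5 and MT-ND2 had ratios of this size, treated apart further on. PLCB4, a phospholipase C that makes second messengers, lies on chromosome 20 from 9048472 to 9485240. It had 21 reads in 3 clusters in parental nuclei and 840 reads in 66 clusters in KRT19 KO nuclei, or 7.13 and 328 RPM, 46.0-fold higher (29.9 to 74.7). ROBO1, a receptor for Slit guidance cues, lies on chromosome 3 from 78646389 to 79817148 and had 58 reads in 6 clusters and 600 reads in 51 clusters, 11.9-fold higher (9.07 to 15.9). PLEKHA7, a protein of adherens junctions, lies on chromosome 11 from 16798844 to 17035962 and had 76 reads in 8 clusters and 690 reads in 56 clusters, 10.4-fold higher (8.22 to 13.4). In each of these 3 genes the reads were spread over many clusters, and no cluster held more than 5.07% of the KRT19 KO reads.

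Among the other genes with the highest ratios, 4 transcripts carry clone names. CTD-3006G17.2 on chromosome 14 had 55 reads in 5 clusters and 1328 reads in 99 clusters, 27.7-fold higher (21.2 to 37.0). CTD-2277K2.1, also on chromosome 14, had 37 and 507 reads, 15.7-fold higher (11.3 to 22.6). RP13-143G15.4 on chromosome 6 and RP11-35J10.5 on chromosome 11 were 6.82-fold and 6.09-fold higher. EIF4G2, a translation initiation factor related to eIF4G, had 61 and 824 reads, 15.5-fold higher (11.96 to 20.5), but 76.0% of its KRT19 KO reads were in 1 cluster. KLC4, a kinesin light chain, had 130 and 712 reads (6.29-fold higher), the zinc finger gene ZNF367 had 111 and 580 (6.005-fold), FAM129A had 168 and 847 (5.79-fold), and DUSP10, a phosphatase of stress-activated MAP kinases, had 86 and 422 (5.64-fold). All 12 of these genes also had a higher share in the cytoplasm of KRT19 KO cells than in that of parental cells, by 2.003-fold (CTD-2277K2.1) to 35.2-fold (ROBO1).

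By the same rule the lowest ratio was that of TNS4, 14.1-fold lower (10.5 to 19.3) in KRT19 KO nuclei. This tensin of focal adhesions lies on chromosome 17 from 38632080 to 38657875. It had 760 reads in 23 clusters in parental nuclei and 47 reads in 3 clusters in KRT19 KO nuclei, or 258 and 18.3 RPM. ARL15, a small GTPase of the ARF-like family, had 612 reads in 46 clusters and 55 reads in 7 clusters, 9.68-fold lower (7.34 to 13.003). RAB30, a small GTPase of the Golgi, had 556 and 58 reads, 8.34-fold lower (6.36 to 11.1). HS6ST2, which adds sulfate to heparan sulfate, had 629 and 68 reads, 8.05-fold lower (6.26 to 10.5). The receptor tyrosine kinase MERTK had 513 and 59 reads, 7.57-fold lower (5.77 to 10.1).

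The remaining genes of this end were CFL1, CAPRIN2, MGAT5B, SLCO1B3, FAM196B, ITGBL1 and PLCB1. CAPRIN2 had 680 and 82 reads (7.22-fold lower), and the glycosyltransferase MGAT5B had 1043 and 127 (7.15-fold lower). SLCO1B3, an organic anion transporter, had 1222 reads in 65 clusters and 154 reads in 16 clusters (6.90-fold lower), and FAM196B had 1166 and 158 reads (6.42-fold lower). ITGBL1, an integrin beta-like protein, had 673 and 94 reads (6.23-fold lower). PLCB1, a paralog of PLCB4, had 1042 reads in 84 clusters and 147 reads in 11 clusters, 6.17-fold lower (5.19 to 7.38), so these neighbours on chromosome 20 stood at opposite ends of the list.

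CFL1 encodes cofilin, which severs actin filaments, and rested on 1 site. It had 1148 reads in parental and 135 reads in KRT19 KO nuclei, 7.40-fold lower (6.19 to 8.91), and 96.1% of the parental reads were in 1 cluster of its 3'UTR. Without the cluster with the most reads in each library the log2 ratio of CFL1 was 0.31, and by number of clusters it was 0.37. In the cytoplasm CFL1 had 404 parental and 1575 KRT19 KO reads, 3.30-fold higher (2.96 to 3.69). It was the only one of the 24 genes at either end of the list with an opposite direction in the cytoplasm.

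**Figure D2:**
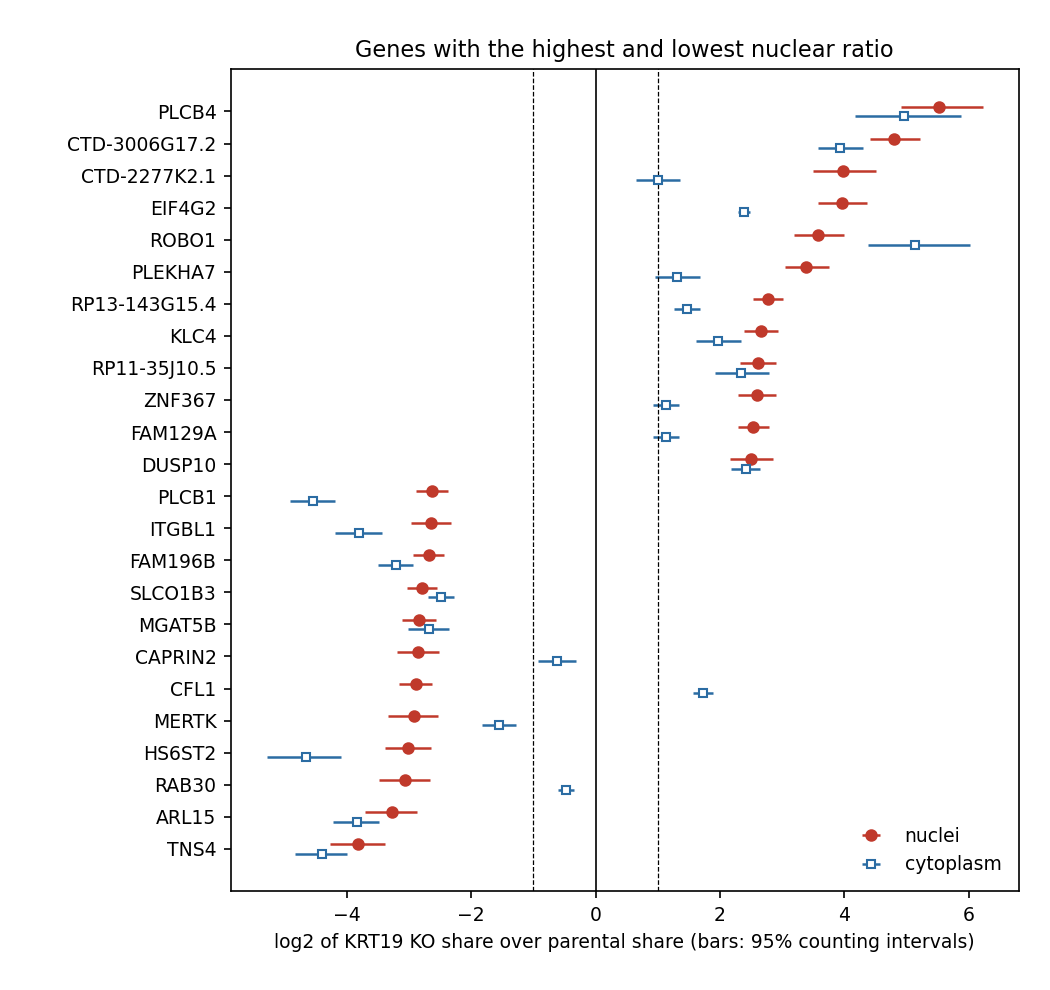
The 12 genes with the highest and the 12 with the lowest nuclear ratio are shown by the log2 of the KRT19 KO share over the parental share (x axis), with filled circles for nuclei, open squares for cytoplasm and bars for 95% counting intervals. Nuclear and cytoplasmic values lie on the same side of 0 for each gene except CFL1.

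Of the genes the study concentrates on, SRC was past 2-fold in nuclei, and HNRNPK, MDM2 and EIF4E were not. HNRNPK itself had 402 reads in parental and 189 in KRT19 KO nuclei, 1.85-fold lower (1.55 to 2.21), and in the cytoplasm its share was 1.33-fold higher. MDM2, the ubiquitin ligase that restrains p53, had 624 and 510 reads, a ratio of 0.939 whose interval of 0.834 to 1.06 includes 1. EIF4E, the cap-binding translation factor, had 341 and 391 reads, 1.32-fold higher (1.14 to 1.53). SRC, a tyrosine kinase gene, had 294 and 94 reads, 2.72-fold lower (2.15 to 3.47), and 3.32-fold lower in the cytoplasm. MYC, with 40 and 37 reads, was below the read minimum.

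By annotation class, the share of intron reads was lower in KRT19 KO nuclei and that of coding reads higher, with most of the second difference on the mitochondrial genome. Introns held 80.4% (80.38 to 80.47%) of gene-assigned reads in parental and 75.7% (75.69 to 75.80%) in KRT19 KO nuclei, by the Wilson method. The 3'UTR share was 6.42% (6.39 to 6.45%) and 6.89% (6.86 to 6.93%). Coding reads made up 2.82% and 5.55%. Outside the mitochondrial genome coding reads were 1.83% and 1.98%, and on it they were 0.987% and 3.57%. The 5'UTR share was 0.713% and 0.488%, but 1 parental site of 8387 reads, at MTRNR2L12 on chromosome 3, was named as 5'UTR in the parental library only, and without it the shares were 0.428% and 0.488%. The snRNA share was 0.822% and 0.644%, and introns of lincRNAs held 2.85% and 3.19%. Without the mitochondrial genome the intron share was 81.2% and 79.4%, a difference in the same direction and smaller.

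**Figure D3:**
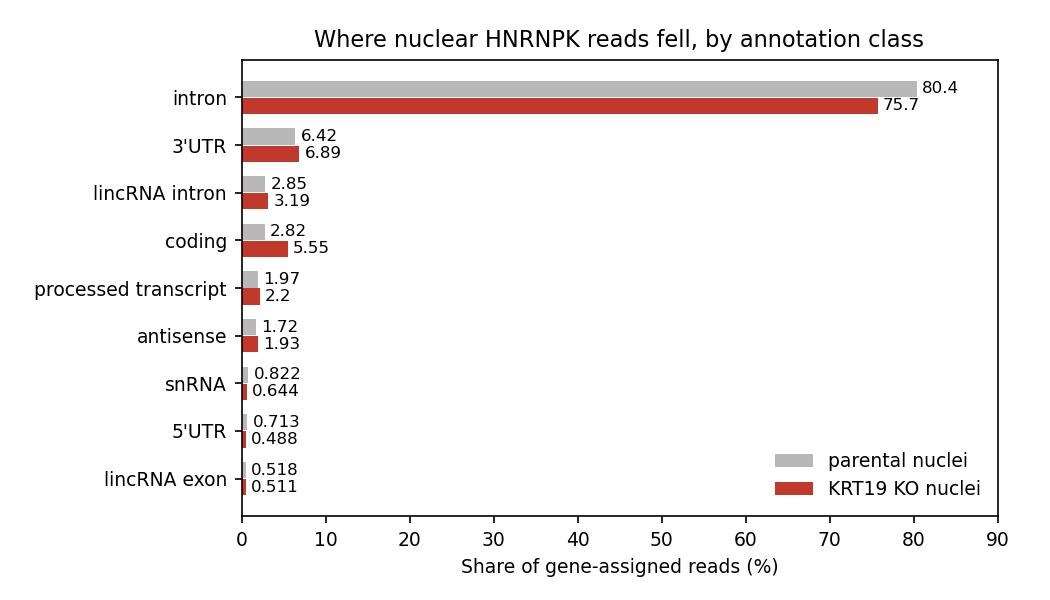
Bars give the percentage of gene-assigned reads in each annotation class (x axis) for parental nuclei (grey) and KRT19 KO nuclei (red). Introns dominate both libraries with 80.4% and 75.7%, and the coding share is 2.82% against 5.55%. The 5'UTR bars of 0.713% and 0.488% include the MTRNR2L12 site named in parental nuclei only.

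Genes were past 2-fold more often by their 3'UTR or coding reads than by their intron reads. Of 380 genes with 200 or more 3'UTR reads and clusters in both libraries, 66 were at least 2-fold higher (17.4%) and 66 at least 2-fold lower (17.4%). The shares were 8.15% and 11.8% of 4382 genes by intron reads. By coding reads, mitochondrial genes included, they were 29.3% and 14.7% of 75 genes. Introns held 134883 parental clusters in 10180 genes, and 3'UTRs held 7738 in 3973. The part of cluster number in this difference was not tested. The 3'UTR of PTBP3, a pyrimidine tract binding protein, had 5 reads in 1 cluster and 285 reads in 10 clusters, 65.5-fold higher (27.7 to 203). HSPA13, a chaperone of the HSP70 family, had 8 and 343 3'UTR reads, and NR3C1, the glucocorticoid receptor, had 13 and 319. The parental counts of PTBP3 and HSPA13 lie at or near the minimum of 5 reads per cluster. The size of their ratios rests in part on this floor. The 3'UTR of BCL2L1, which encodes the apoptosis inhibitor BCL-XL, had 106 reads in 4 clusters and 1204 reads in 2 clusters, 13.1-fold higher (10.7 to 16.1). In the other direction the 3'UTR of MAVS, an adaptor of antiviral signaling, had 472 and 11 reads, that of the taurine transporter SLC6A6 had 748 and 62, and that of FOSL2, an AP-1 subunit, had 860 reads in 17 clusters and 105 in 4. LARP1, which binds mRNAs of ribosomal proteins, had 570 and 52 3'UTR reads.

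In introns, COX7B2 had 9 reads in 1 cluster and 806 reads in 47 clusters, 102.9-fold higher (53.9 to 225.9). The cholesterol transporter ABCA1 had 48 and 308 intron reads, and the clock gene PER3 had 32 and 240. TGM2, a transglutaminase, had 241 intron reads in 17 clusters and 5 reads in 1 cluster, and CKAP2, a protein of the mitotic spindle, had 352 and 31. The low counts of COX7B2 and TGM2 lie at or near the minimum of 5 reads per cluster. In coding sequence, KMT2D, a histone methyltransferase, had 1352 reads in 30 clusters and 379 in 18, and ASPM, a spindle pole protein, had 553 and 51. The splicing factor PRPF8 had 55 and 265 coding reads, and the desaturase SCD had 19 and 239.

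The same positions were rarely called in both libraries unless they held many reads. Of the KRT19 KO clusters 19.0% (18.9 to 19.2%) overlapped a parental cluster on the same strand by 1 nt or more, and 18.9% (18.7 to 19.1%) of parental clusters overlapped a KRT19 KO cluster. Among clusters of 5 to 9 reads the shares were 10.2% of KRT19 KO and 10.3% of parental clusters, and among those of 100 or more reads 68.5% and 69.2%. In 3'UTRs 26.4% of KRT19 KO and 27.4% of parental clusters overlapped, and in introns 21.8% and 19.9%. Parental clusters with a KRT19 KO counterpart held 31.3% C and a CCC run in 58.5% of cases, against 26.5% and 42.4% of those without one. In KRT19 KO nuclei the values were 31.6% and 55.8% against 28.2% and 42.6%. The shared clusters also had more reads, with medians of 18 and 17 against 10 and 10.

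Of the 37884 merged sites with a cluster in both libraries, 32245 had a gene name in both, and it was the same gene in all of them. This compares names at like positions and does not check how reads were assigned among copies. Of the 1160 shared sites with 200 or more reads, 120 had a share at least 2-fold higher in KRT19 KO nuclei (10.3%) and 351 a share at least 2-fold lower (30.3%), with a median log2 ratio of -0.41. Restricted to shared sites, 117 of 2397 genes were at least 2-fold higher and 140 at least 2-fold lower, a setting chosen after the data were seen. Of the 24 genes at the ends of the list 17 had a shared site, and 6 of these stayed past 2-fold by shared sites. The other 11 came inside 2-fold, among them ITGBL1 with a log2 ratio of -0.05, RP13-143G15.4 with 0.17, PLEKHA7 with 0.93 and ARL15 with -0.97. For them a part of the difference lay in clusters that only 1 library had, which this setting leaves out by its rule. Some of these values rest on few reads. The only shared site held 5 parental and 8 KRT19 KO reads in PLEKHA7, 21 and 9 in ARL15, and 21 and 17 in ITGBL1. PLCB4, CTD-2277K2.1, ROBO1, RP11-35J10.5, HS6ST2, MERTK and CFL1 had no shared site at all.

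Genes past 2-fold were shorter, had fewer reads and were more often ruled by 1 cluster than the rest. Median reads were 403 for the higher, 425 for the lower and 585 for the other genes. Median clusters in parental and KRT19 KO nuclei were 8 and 15, 17 and 8, and 19 and 18. With a minimum of 1000 reads 72 and 108 of 1371 genes were past 2-fold. The part of read number in these traits was not tested. The median gene span was 46.3 kb for the 450 higher genes with a known span, 61.7 kb for the 533 lower genes and 78.4 kb for the 3813 genes within 2-fold. In 20.2% of the higher, 20.4% of the lower and 7.64% of the other genes, 1 cluster held 50% or more of the reads in at least 1 library.

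Genes of the mitochondrial genome stood apart from all other lists. Of 12 with clusters in both nuclei, 10 were at least 2-fold higher in KRT19 KO nuclei and none lower, with a median log2 ratio of 3.33 against -0.02 over all genes. MT-ND2, which encodes a subunit of respiratory complex I, had 3788 and 42100 reads, 12.8-fold higher (12.4 to 13.2), and 89.7% of the KRT19 KO reads were in 1 cluster. MT-ND5 had 369 and 10981 reads, 34.2-fold higher (30.8 to 38.0), and MT-CO2, of cytochrome oxidase, had 30 and 525. MT-ND1 had 11556 and 15783 reads, a ratio of 1.57 (1.53 to 1.61), and MT-ND4 had 9434 and 6586, 1.25-fold lower (1.21 to 1.29). When only shared sites were counted the median log2 ratio of these genes was 0.45, so much of the difference lay at positions without a parental cluster. Reads of these genes carried the T-to-C change less often than the library as a whole, 33.3% for MT-ND2 and 49.6% for MT-ND1 in KRT19 KO nuclei against 76.7%. The difference was not particular to nuclei. In the cytoplasm reads on mitochondrial DNA were 0.708% of all reads in parental and 4.64% in KRT19 KO cells. MT-ND2 had 0 and 67698 cytoplasmic reads, MT-ND4 had 8924 and 10854, and 8 of these genes with a cytoplasmic ratio had a median log2 ratio of 0.67. Many mitochondrial sequences have copies in nuclear DNA, so the assignment of these reads is uncertain.

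The ribosomal RNA gene MT-RNR2 was listed at 0 in parental nuclei and at 24434 reads in 6 clusters in KRT19 KO nuclei. In the cytoplasm MT-RNR2 had 23604 parental and 196919 KRT19 KO reads. Its nuclear copy MTRNR2L12 was the reverse, with 8387 parental reads in 1 cluster and none in KRT19 KO nuclei under that name. At the same position on chromosome 3 the KRT19 KO library had 17961 reads without a gene name. MTRNR2L12 was thus listed in 1 library only because of naming.

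**Figure D4:**
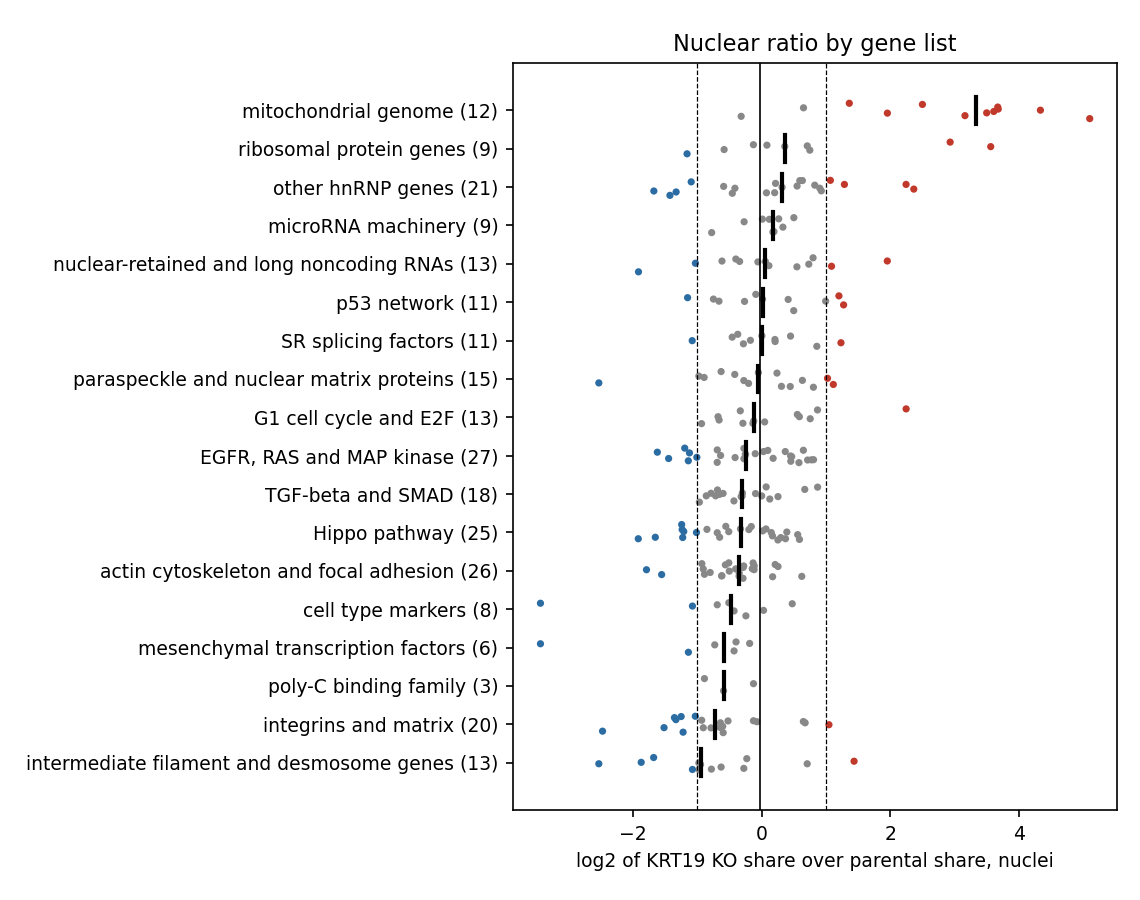
Each row is a gene list, each small point 1 of its genes by the log2 of the KRT19 KO share over the parental share in nuclei (x axis), with the number of genes in brackets. Red points are at least 2-fold higher, blue points at least 2-fold lower, black bars are list medians and the solid line is the median of all genes, and medians run from -0.95 for intermediate filament and desmosome genes to 0.36 for ribosomal protein genes, with the mitochondrial genome apart at 3.33.

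Beyond MT-RNR2, 6 genes were listed at 0 in parental nuclei, 0.131% of the kept genes with it, and 10 were listed at 0 in KRT19 KO nuclei (0.187%). Clusters needed 5 reads, so a 0 is an absence of called clusters. Most were small structured RNAs in a single cluster. They included RNU4-78P with 1584, SNORD21 with 499 and SNORD18B with 417 KRT19 KO reads. RNU5A-8P had 1540, RNU5F-1 1328 and SNORD12 782 parental reads. At the positions of these RNAs the other nuclear library had no cluster under any name, unlike at MTRNR2L12. Where such RNAs have near-identical copies, the assignment of reads among the copies is uncertain. RNA28S5, a ribosomal RNA, had 451 parental reads. RP11-169F17.1 on chromosome 18, whose clusters were annotated for nonsense-mediated decay, differed from these, with 777 reads in 52 clusters in KRT19 KO nuclei. It was also listed at 0 in parental cytoplasm and had 1353 reads in KRT19 KO cytoplasm. NEO1, a netrin receptor, and WNT7B, a Wnt ligand, had 265 and 240 parental reads, each in 23 clusters, and none in KRT19 KO nuclei. In the cytoplasm NEO1 had 309 parental and 5 KRT19 KO reads, and WNT7B had 79 and 67. These 2 genes were singled out after their values were seen.

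Intermediate filament and desmosome genes, a list that includes the keratins, had 13 kept genes, of which 11 had a lower share in KRT19 KO nuclei. At least 2-fold lower were 4 and higher 1, against 11.1% and 9.94% of all genes, with a median log2 ratio of -0.95. LMNA, which encodes the nuclear lamins A and C, had 610 reads in 22 clusters and 92 reads in 7 clusters, 5.77-fold lower (4.63 to 7.26). PKP2, a desmosomal plakophilin, had 437 and 104 reads, 3.66-fold lower (2.95 to 4.57). The keratin gene KRT80 had 452 and 123 reads, 3.20-fold lower (2.61 to 3.94), and VIM, for vimentin, had 167 and 69, 2.11-fold lower (1.58 to 2.83). The keratin gene KRT86 had 130 and 306 reads, 2.71-fold higher (2.196 to 3.35). DST, a linker of filaments and the most bound member, had 3771 and 2797 reads, 1.17-fold lower. The median of this list was below 0 in all 10 other ways of counting that were tried.

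Of 20 integrin and matrix genes 7 were at least 2-fold lower, 1 was higher and 12 were within 2-fold, against 11.1% lower and 9.94% higher over all genes, with a median log2 ratio of -0.72. LAMB1, a laminin chain, had 618 reads in 27 clusters and 97 in 6, 5.54-fold lower (4.47 to 6.94). COL13A1, a transmembrane collagen and the most bound member, had 2758 reads in 119 clusters and 954 in 61, 2.52-fold lower (2.34 to 2.71). The integrin subunit ITGA3 had 1577 and 577 reads (2.38-fold lower), and the basement membrane collagen COL4A5 had 999 and 304 (2.86-fold lower). COL7A1, COL27A1 and COL4A2 were 2.56-fold, 2.33-fold and 2.04-fold lower. COL12A1 had 299 and 537 reads, 2.06-fold higher (1.79 to 2.39). Among 26 actin and focal adhesion genes 2 were at least 2-fold lower and none higher, against the same 11.1% and 9.94% of all genes, with a median of -0.35. The lowest was TLN1, for talin, with 385 and 97 reads (3.45-fold lower).

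Among Hippo pathway genes, which couple cell contact and tension to the coactivator YAP1, 7 of 25 were at least 2-fold lower and none higher, against 11.1% and 9.94% of all genes, with a median of -0.33. YAP1 had 2160 reads in 88 clusters and 799 in 43, 2.35-fold lower (2.17 to 2.55). TEAD4, a transcription factor partner of YAP1, had 1552 and 584 reads, 2.31-fold lower (2.10 to 2.55), and TEAD1, the most bound member, had 5774 and 6590, 1.31-fold higher. The target genes ANKRD1 (542 and 125 reads) and CYR61 (343 and 148 reads) were 3.77-fold and 2.02-fold lower. AMOTL1, WWC1 and VGLL4 made up the rest, at 3.14-fold, 2.36-fold and 2.34-fold lower. When only shared sites were counted 1 of the 25 was lower and 1 higher, with a median of -0.06, and by number of clusters 3 were lower and none higher, with a median of -0.07.

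In the EGFR, RAS and MAP kinase list 6 of 27 genes were lower and none higher, against 11.1% and 9.94% of all genes, with a median of -0.25. When only shared sites were counted the median was 0.09 and 1 of 25 genes was lower. EGFR had 5732 and 5090 reads, a ratio of 1.02. The receptor MET had 1883 reads in 89 clusters and 716 in 48, 2.29-fold lower (2.10 to 2.50), and RASA1, a GTPase-activating protein for RAS, had 1056 and 299, 3.07-fold lower (2.70 to 3.51). The feedback phosphatase DUSP4, the RAS pathway inhibitor SPRY4 and the kinase YES1 were 2.17-fold, 2.01-fold and 2.202-fold lower, and SRC is given above. Of 6 mesenchymal transcription factors 2 were lower, ETS1 with 435 reads in 24 clusters and 35 in 4 (10.8-fold lower, 7.66 to 15.7) and RUNX1 with 3630 and 1436 (2.1996-fold lower). None of 18 TGF-beta and SMAD genes was past 2-fold, with SMAD3 at 2859 and 1516 reads, and their median was -0.31 (0.03 with exonic reads only).

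Genes for RNA-binding proteins went both ways. Of 21 other hnRNP genes 4 were higher and 4 lower, against 9.94% and 11.1% of all genes, with a median of 0.32, and by number of clusters none of the 21 was past 2-fold. HNRNPA2B1 had 111 and 497 reads, 5.15-fold higher (4.18 to 6.38), and HNRNPD 142 and 585, 4.73-fold higher (3.93 to 5.73). HNRNPA3 and SYNCRIP were 2.44-fold and 2.10-fold higher. HNRNPA1 had 407 and 111 reads, 3.19-fold lower (2.58 to 3.97), and HNRNPH1 953 and 309, 2.68-fold lower (2.36 to 3.06). HNRNPLL and HNRNPH3 were 2.51-fold and 2.13-fold lower. The paralogs PCBP2 and PCBP3 of the poly-C binding family were within 2-fold, at 1.51-fold and 1.09-fold lower. Of 11 SR splicing factor genes SRSF3 was higher (293 and 599 reads, 2.35-fold) and SRSF5 lower (165 and 68 reads, 2.11-fold).

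Nuclear and other long noncoding RNAs had 2 of 13 higher and 2 lower, each count resting on few genes beside the 9.94% and 11.1% of all genes. KCNQ1OT1, an antisense transcript of an imprinted locus, had 161 reads in 14 clusters and 542 in 35, 3.87-fold higher (3.24 to 4.64), and it overlaps a gene on the other strand, so its share is uncertain because the sources used here do not say whether gene naming used strand. OIP5-AS1 was 2.12-fold higher, and SNHG5 and SNHG12, hosts of snoRNAs, were 3.76-fold and 2.04-fold lower. PVT1 had the most reads, 5722 and 4783, a ratio of 0.961 (0.924 to 0.998). MALAT1 of nuclear speckles had 3140 and 1783 reads, 1.53-fold lower (1.45 to 1.63), and NEAT1, the scaffold of paraspeckles, had 2791 and 3551, 1.46-fold higher (1.39 to 1.54). Among 15 paraspeckle and nuclear matrix genes SAFB2 was 2.03-fold higher, LMNA lower, and MATR3, with 2991 and 1949 reads, within 2-fold.

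Of 11 p53 network genes 2 were higher and 1 lower, against 9.94% and 11.1% of all genes, with a median of 0.01. USP7, which deubiquitinates MDM2 and p53, had 155 and 326 reads (2.42-fold higher). The checkpoint kinase CHEK2 had 72 and 144 (2.30-fold higher) and the kinase HIPK2 had 1484 and 582 (2.22-fold lower). By unique reads none of the 11 was higher and 2 were lower, and by number of clusters none was past 2-fold. The median was 0.17 by unique reads and -0.19 by T-to-C reads. Of 13 genes of the G1 phase and E2F only E2F8 was past 2-fold, with 49 and 202 reads, 4.74-fold higher (3.45 to 6.61), and CDK6 had 1939 and 1743. Of 9 ribosomal protein genes 2 were higher and 1 lower, against the same shares of all genes. RPL27A (40 and 410 reads, 11.8-fold) and RPL34 (37 and 245, 7.61-fold) were higher and RPL9 lower (513 and 200, 2.23-fold), all families with many pseudogene copies. Of 9 genes of the microRNA machinery none was past 2-fold, and DROSHA had 1439 and 1037 reads. Among 114 ZNF genes 14 were higher and 10 lower, near the 9.94% and 11.1% of all genes, from ZNF248 (6.82-fold higher) to ZNF33A (5.57-fold lower), with a median of 0.15.

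The same genes were looked at in the cytoplasmic libraries of the 2 cell lines, which the choice of genes did not use. A cytoplasmic ratio was available for 4553 genes, of which 11.3% were at least 2-fold higher and 21.2% at least 2-fold lower in KRT19 KO cells. Of the 407 genes higher in KRT19 KO nuclei, 127 were also at least 2-fold higher in the cytoplasm (31.2%) and 18 lower, with a median cytoplasmic log2 ratio of 0.51. Of the 466 genes lower in nuclei, 195 were lower in the cytoplasm (41.8%) and 34 higher, with a median of -0.74. For the 3680 genes within 2-fold in nuclei the median was -0.30. The rank correlation of nuclear and cytoplasmic log2 ratios over genes was 0.341, and nuclei and cytoplasm came from the same cell lines.

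Opposite differences past 2-fold in nuclei and cytoplasm were present in 52 of the 4553 genes with both ratios. Of the genes higher in nuclei 4.42% were at least 2-fold lower in the cytoplasm, against 21.2% of all 4553. Of those lower in nuclei 7.30% were at least 2-fold higher in the cytoplasm, against 11.3%. Such genes were thus rarer than the shares over all genes. RACGAP1, a GTPase-activating protein of cytokinesis, had 1852 and 659 nuclear reads, 2.45-fold lower (2.24 to 2.68), and 613 and 6836 cytoplasmic reads. EREG, the growth factor epiregulin, had 1040 and 286 nuclear reads, 3.16-fold lower (2.77 to 3.62), and 7063 and 18207 cytoplasmic reads. CYP1B1, a cytochrome P450, had 529 and 87 nuclear reads, 5.29-fold lower (4.21 to 6.72), and 666 and 2725 cytoplasmic reads. SQSTM1, the autophagy receptor p62, had 323 and 42 nuclear reads, 6.69-fold lower (4.84 to 9.46), and 231 and 554 cytoplasmic reads. In the other direction DDX18, a DEAD box helicase, had 197 and 384 nuclear reads, 2.24-fold higher (1.88 to 2.67), and 2727 and 1131 cytoplasmic reads. These 5 genes were singled out after their values were seen.

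Ratios also ran with position in the genome, a pattern looked at after the values were seen. The 5322 genes were placed in windows of 10 Mb, of which 234 held at least 10 genes, and 50% of the window medians lay between -0.22 and 0.18 on the log2 scale. Medians were above 0.5 in 11 windows and below -0.5 in 15, and not only on chromosome 11. Chromosome 8 from 120 to 130 Mb had 0.68 and chromosome 4 from 120 to 130 Mb had 0.66. Over whole chromosomes, chromosome 17 had 7 of 249 genes higher and 42 lower, and chromosome 21 had 14 of 63 higher and 2 lower. On chromosome 11, described here, the ratios differed by position, with borders at 50 and 70 Mb set after the values were seen. In its first 50 Mb 39 of 115 genes were at least 2-fold higher in KRT19 KO nuclei (33.9%) and 1 lower, with a median log2 ratio of 0.63. Between 50 and 70 Mb 6 of 56 genes were higher and 10 lower, with a median of -0.08. From 70 Mb onward 35 of 117 genes were at least 2-fold lower (29.9%) and 2 higher, with a median of -0.57. Of the 5021 genes on other chromosomes 9.40% were higher and 10.9% lower, with a median of -0.03. PLEKHA7, EIF4G2, RP11-35J10.5, KCNQ1OT1, RPL27A and E2F8 lie in the first 50 Mb, and RAB30, YAP1, AMOTL1 and ETS1 from 70 Mb onward.

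In the cytoplasm the genes of the first 50 Mb had a median log2 ratio of 0.16, those between 50 and 70 Mb 0.35 and those from 70 Mb -0.98, against -0.28 over the genes on other chromosomes. Over the 220 windows with 10 or more cytoplasmic genes the rank correlation of nuclear and cytoplasmic medians was 0.555, a description of windows from the same pair of cell lines. The window of chromosome 11 from 80 to 90 Mb had a median of -0.80 over 14 genes, which was 0.87 over 6 genes when only exonic reads were counted. What these genes of chromosome 11 share besides position was not tested.

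**Figure D5:**
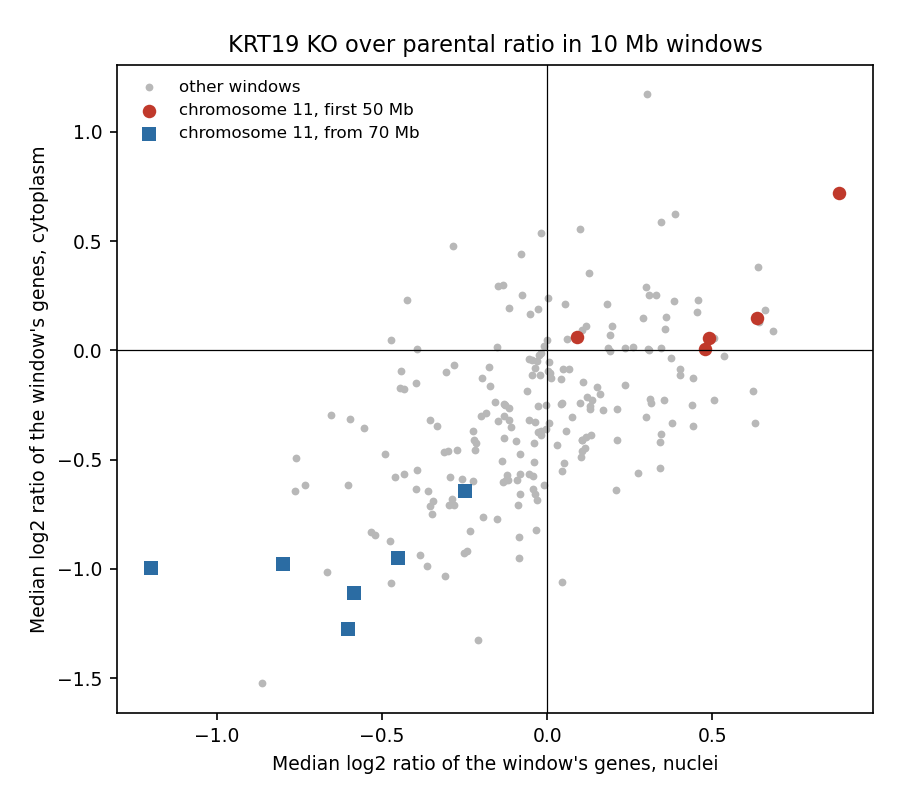
Each point is a window of 10 Mb, placed by the median log2 ratio of its genes in nuclei (x axis) and in cytoplasm (y axis), with red circles for the first 50 Mb of chromosome 11, blue squares for chromosome 11 from 70 Mb and grey for the other windows. The windows of its first 50 Mb lie to the right of 0 and those from 70 Mb lie below 0 on both axes.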

How the data were processed

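HNRNPK PAR-CLIP clusters from parental and KRT19 KO MDA-MB-231 nuclei were analysed, with the cytoplasmic libraries beside them and 1 library per condition. According to the study's methods, the authors used hg19 as the genome and PARalyzer, run within PARpipe, as the cluster caller for each library. Per the submitters' notes, bcl2fastq 2.20.0 was used. The authors deposited raw counts of reads and conversion events per cluster. The deposited fraction of T-to-C reads, the deposited mode score and the deposited log10 conversion specificity were not used here. Collapsing of identical reads and the minimum of 5 reads per cluster, as the files show it, limit low values.

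Read counts were summed per gene name and class and divided by the gene-assigned reads, 2945340 in parental and 2562884 in KRT19 KO nuclei. Ratios have exact binomial and shares Wilson 95% intervals. Clusters were compared on the same strand. With 1 library a side there is no test, and these calculations were tested on simulated data. Genes were named as the 10 with the most reads, the 12 with the highest and the 12 with the lowest ratio among genes with 500 or more reads and 3 or more clusters in each library (mitochondrial genes apart), the 5 with the most reads in 1 library only, HNRNPK, KRT19, MDM2, EIF4E, MYC and SRC, and from each list its most bound, highest and lowest member. Other genes were named after their values were seen, and some genes that the rule covers are not reported here. The comparison, the genes and the lists were chosen with earlier results of these data known. Alternatives covered the denominator, the read minimum, kinds of reads, clusters and classes. Python 3.11.15, numpy 2.4.6, pandas 2.3.3, scipy 1.17.1, pysam 0.24.0 and matplotlib 3.10.9 were used.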

Additional observations from a re-analysis of the deposited data

Results flagged for a closer look

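Reads in clusters without a gene name, which the gene ratios do not use, made up 21.2% of the reads in KRT19 KO nuclei and 16.7% in parental nuclei. The largest such site was the one on chromosome 3 that carried the name MTRNR2L12 in the parental library.

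The nuclear log2 ratio of CFL1 was -2.89 and the cytoplasmic one 1.72, opposite directions with 1 library each, and the difference was not tested.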

How the results depend on the processing

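No paired analysis was possible because each cell line had 1 nuclear library and no test was made. The counts of genes at least 2-fold higher and lower were 529 and 592. With a read minimum of 100 they were 926 and 1011 (of 7303 genes), with 1000 they were 72 and 108 (of 1371), by number of clusters 323 and 345, with exonic reads only 70 and 137 (of 554), at 4-fold 100 and 111, and at sites with a cluster in both libraries, an alternative chosen after seeing the data, 117 and 140 (of 2397). Clusters with 2 or more conversion locations gave 444 and 612 of 3096 genes, a larger share than in the report. The remaining alternatives gave 426 to 575 higher and 436 to 673 lower, of 4680 genes with clusters of 10 or more reads, 4382 with introns only, 4342 without the cluster with the most reads and 5322 in the others, with more lower than higher genes except without the mitochondrial genome in the denominator (575 and 538) and without the cluster with the most reads of each gene (467 and 436).

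The intron share in parental and KRT19 KO nuclei was 79.9% and 75.03% by unique reads, 83.7% and 82.1% by number of clusters, 82.6% and 80.4% without the 100 clusters with the most reads, and 81.2% and 79.4% without the mitochondrial genome. The 3'UTR share was 6.92% and 7.27%, 4.80% and 5.37%, 6.34% and 7.12%, and 6.48% and 7.23% under the same settings. It was lower in parental nuclei, and the intron share higher, under each of them. Overlapping clusters were 18.8% of KRT19 KO and 18.7% of parental clusters when 10 nt were required, 25.4% and 25.01% of clusters with 10 or more reads, and 68.5% and 69.2% with 100 or more.

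The 24 genes at the ends of the list were recomputed in 197 settings and stayed past 2-fold in the same direction in 181, with 10 genes past it in each setting that gave them a value. Of the 16 losses 11 came from counting shared sites only, where 6 of the 17 genes with a value stayed past 2-fold. CFL1 turned to log2 ratios of 0.37 by number of clusters and 0.31 without its cluster with the most reads.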
